A study of Mus musculus with 8 samples.

Results

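The vascular growth factors and angiopoietins are secreted ligands that build and maintain blood vessels. The group described here held 7 genes, chosen by symbol from the 23219 genes of the deposited table: Vegfa, Vegfb, Vegfc, Pgf, Angpt1, Angpt2 and Angptl4. They were followed across 8 libraries of whole mouse kidney taken at 2 months of age. The 4 control kidneys were Mta2flx/flx, and the 4 mutant kidneys were Six2Cre Mta2flx/flx, so both groups carried the floxed alleles and the mutants alone carried the Cre transgene. NuRD, of which Mta2 codes for a subunit, couples nucleosome remodelling to histone deacetylation. The series title speaks of Mta2 deletion in nephron progenitor cells and of focal segmental glomerulosclerosis, a scarring disease of the glomerulus. Six2 is a gene of those progenitors, so endothelium, pericytes and other cells outside that lineage are not the target of the Cre, although the whole kidney was sampled. The labels number each kidney without stating that they are from separate animals, so a p-value here reflects only the spread between the samples sequenced.

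VEGF ligands act on tyrosine kinase receptors of endothelial cells. VEGF-A, the product of Vegfa, binds the receptors encoded by Flt1 and Kdr, VEGF-B and placental growth factor (Pgf) bind the receptor of Flt1, and VEGF-C acts mainly through the receptor of Flt4, best known from lymphatic vessels. Angiopoietin 1 (Angpt1) activates the receptor encoded by Tek and keeps vessels quiescent, while angiopoietin 2 (Angpt2), made largely by endothelial cells, often opposes it. In the glomerulus podocytes make VEGF-A for the neighbouring fenestrated capillaries. Angptl4 encodes a related secreted protein that inhibits lipoprotein lipase and responds to the PPAR nuclear receptors and to low oxygen.

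In this annotation (GENCODE vM21, mm10) Vegfa spans chromosome 17, 46016993 to 46032369, and Angptl4 lies on the same chromosome at 33773750 to 33781830. Vegfb lies at chromosome 19, 6982473 to 6987651, Vegfc at chromosome 8, 54077606 to 54187096, and Pgf at chromosome 12, 85166635 to 85177790. Angpt1 lies at chromosome 15, 42424723 to 42676977, and Angpt2 at chromosome 8, 18690263 to 18741562. Angpt2 sits inside the gene Mcph1 on the opposite strand with 0 shared exon bases. Exons of Angpt1 share 737 bases with the antisense gene Gm17473. How the authors treated strand is not given in the sources used here, so coverage of such partners cannot be told apart.

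The promoters of Vegfa, Vegfb and Vegfc are shown because these paralogs differed widely in level while hypoxia, a classical inducer of Vegfa, was among the pathways examined. Of the 7 genes, 4 matched the RefSeq promoter table (GRCm38.p6). Each sequence is the 250 bases before the RefSeq start, 5′ to 3′ on the strand of the gene, at chr17:46032378-46032627 (minus) for Vegfa, chr19:6987652-6987901 (minus) for Vegfb and chr8:54077282-54077531 (plus) for Vegfc. Capitals mark the hypoxia response core (ACGTG or GCGTG) and the GC box (GGGCGG), each on either strand.
Vegfa: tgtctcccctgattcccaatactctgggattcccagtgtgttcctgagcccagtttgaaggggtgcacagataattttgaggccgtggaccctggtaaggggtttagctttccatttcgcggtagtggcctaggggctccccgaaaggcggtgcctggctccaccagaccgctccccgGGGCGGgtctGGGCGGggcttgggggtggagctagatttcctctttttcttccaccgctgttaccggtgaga
Vegfb: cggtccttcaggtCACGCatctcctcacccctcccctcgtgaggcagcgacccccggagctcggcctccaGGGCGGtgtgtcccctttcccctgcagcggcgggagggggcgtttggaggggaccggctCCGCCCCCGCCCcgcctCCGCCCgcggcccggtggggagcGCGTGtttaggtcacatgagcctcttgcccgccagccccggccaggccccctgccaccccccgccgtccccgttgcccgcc
Vegfc: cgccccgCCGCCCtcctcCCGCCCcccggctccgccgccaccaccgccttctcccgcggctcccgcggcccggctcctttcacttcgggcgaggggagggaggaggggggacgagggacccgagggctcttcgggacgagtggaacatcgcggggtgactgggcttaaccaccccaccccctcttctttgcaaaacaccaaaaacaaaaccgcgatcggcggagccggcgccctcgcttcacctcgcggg
The Vegfa window held 0 matches to the hypoxia response core and 2 to the GC box, with 59.2% G and C. The Vegfb window held 2 and 4 matches with 76.4% G and C, where 2 of the GC box matches lie end to end, and the Vegfc window 0 and 2 with 71.6%. Among 32851 windows of the same length in the table, 38.6% held the hypoxia response core and 32.7% the GC box. A match is a description of letters and not of binding, and no match says only that these letters are not in this window.

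Levels are given in BPM, the bases of sequence credited to a gene per megabase credited to all genes together. The authors' values were read as base coverage from their numerical steps, since no source states the unit. Bases assigned to genes ranged from 181 to 439 megabases in the controls and from 164 to 468 in the mutants. Bases are not reads, so how many reads stand behind a value is unknown. Genes of small RNAs include those of small nucleolar RNAs and of the RNA parts of RNase P and MRP. Such genes accounted for 29.8%, 34.8%, 16.0% and 24.6% of all assigned bases in controls 3401, 3486, 3586 and 3587. They made up 26.7%, 48.4%, 53.2% and 26.1% in mutants 3382, 3387, 3487 and 3489. Because the deposited values have a common total, a high small RNA share leaves fewer bases for every other gene. Mta2 itself was at 49.0, 35.1, 67.9 and 52.4 BPM in these controls. In the mutants it was at 52.6, 33.1, 14.3 and 48.9 (log2 fold change -0.56, limma adjusted p = 0.857), which is a weak check of the labels in whole kidney. All 8 tubule markers checked were detected, with a summed level of 3990 to 12539 BPM in the controls and 3056 to 8875 in the mutants.

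Vegfa and Angptl4 were the ligand genes with the most coverage for their length, and Vegfc and Pgf had the least. Per kilobase of exon, the control level was 26.6 ± 10.4 BPM for Angptl4 and 21.1 ± 10.2 for Vegfa (SD, n = 4). The ranges of these neighbours in the order overlapped, and Angptl4 was above Vegfa in 2 of 4 controls and 3 of 4 mutants. Angpt1 followed at 4.24 ± 1.29 per kilobase and Angpt2 at 3.45 ± 1.68. Vegfa was above Angpt1 in all 8 libraries with no overlap of the ranges, whereas Angpt1 and Angpt2 overlapped. Vegfb stood at 1.28 ± 0.890 and Vegfc at 0.629 ± 0.504 per kilobase, and their ranges overlapped as well. Angpt2 was above Vegfb in all 4 controls but in 2 of 4 mutants, with overlapping ranges in both groups. In the mutants the mean per kilobase was 3.08 for Vegfb, with 6.70 in mutant 3489, against 3.03 for Angpt1 and 2.51 for Angpt2. Pgf, listed at 0 in 4 of the 8 libraries, came last, although its level per kilobase in mutant 3387 was above that of Vegfc there.

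**Figure D1:**
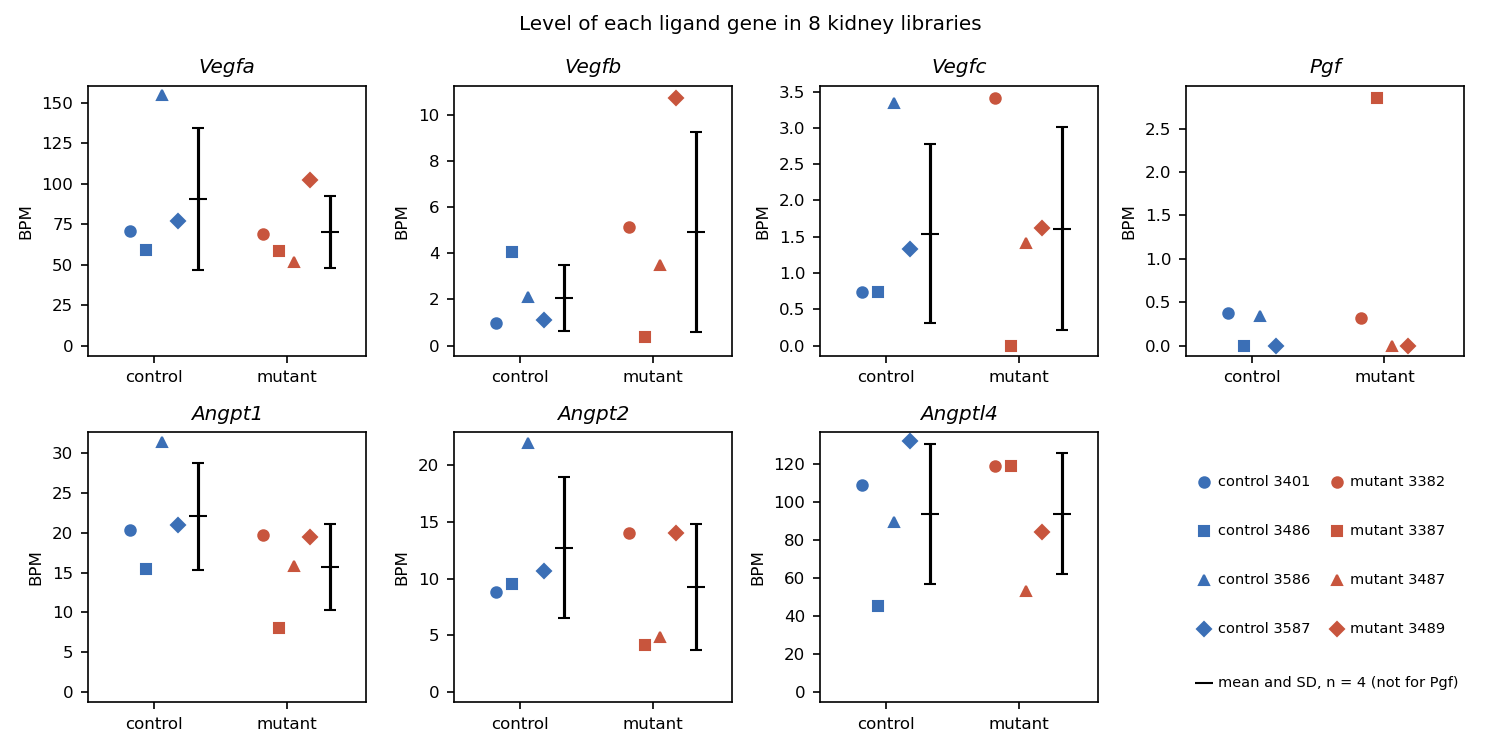
Level of each of the 7 ligand genes in BPM (linear axis) in 4 control (blue) and 4 mutant (red) kidney libraries, 1 point per library, with the mean and SD beside each group except for Pgf. Control 3586 gave the highest control value of Vegfa (155), Vegfc (3.35), Angpt1 (31.5) and Angpt2 (22.0), and the groups overlapped for every gene.

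None of the 6 tested ligand genes passed an adjusted p of 0.05 by limma on log2(BPM + 1) with adjustment over all genes. Pgf was not tested. A gene was tested if 4 or more libraries had it at 1 BPM or above, which left 13054 genes and 6 of the 7 ligands. Over all tested genes 14 passed an adjusted p of 0.05, which is 0.107%, so a count of 0 among 6 is near the background. None of the 6 had an unadjusted p under 0.05, against 6.33% of all tested genes. Of the 14 genes, 10 were higher and 4 lower (71.4% higher). The higher share was 88.3% of 60 calls under median scaling and 83.1% of 59 calls with small RNA genes left out of the totals. The log2 fold change of the median tested gene was -0.23, and 71.5% of tested genes were negative. Among the ligands 4 of 6 were negative, with a median of -0.17. In whole kidney, fewer cells of a type and less RNA per cell cannot be told apart.

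Vegfa, the main endothelial growth and survival factor of the glomerulus, was at 70.9, 59.1, 155 and 77.1 BPM in controls 3401, 3486, 3586 and 3587. It was at 68.7, 58.7, 51.4 and 102 BPM in mutants 3382, 3387, 3487 and 3489. The groups overlapped, and control 3586 and mutant 3489, which have the largest numbers of assigned bases in their groups, were the highest. The means were 90.5 ± 43.7 and 70.2 ± 22.4 BPM (SD, n = 4 each). The change was -0.31 on the log2 scale (95% interval -1.05 to 0.44, SE 0.36, limma adjusted p = 0.901). Relative to the median tested gene it was -0.08. Without control 3586 the estimate was -0.02. With small RNA genes left out of the totals Vegfa was at 120 ± 43.7 and 114 ± 18.4 per megabase, and its log2 fold change was -0.02.

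Vegfb, a ligand of Flt1 linked to fatty acid uptake in some tissues, was at 0.970, 4.06, 2.12 and 1.09 BPM in the controls. It was at 5.14, 0.389, 3.49 and 10.8 BPM in the mutants. Mutants 3382 and 3489 lay above all controls and mutant 3387 below them all. The change was 0.70 on the log2 scale (95% interval -0.51 to 1.91, SE 0.58, limma adjusted p = 0.865), the largest of the tested ligands in size. These levels rest on few bases, from 231 to 929 in the controls and from 92 to 5037 in the mutants. The estimate was positive in all 18 alternatives in which Vegfb was tested, from 0.25 to 1.58, and the smallest limma adjusted p among them was 0.226.

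Vegfc, the lymphatic growth factor, was at 0.741, 0.745, 3.35 and 1.33 BPM in the controls and at 3.41, 0, 1.41 and 1.62 BPM in the mutants. The highest control and the highest mutant were nearly level, and mutant 3387 was listed at 0. Its log2 fold change of -0.04 (SE 0.52, 95% interval -1.11 to 1.04, limma adjusted p = 0.992) took either sign across the alternatives, from -1.34 to 0.56. The estimate depended on the pseudocount, at -0.49 with 0.1 in BPM and -1.34 with 1 on the deposited scale. The Vegfc levels rest on 0 to 1469 assigned bases. Pgf, the placental member of the family, had 91, 0, 149 and 0 assigned bases across controls and 52, 673, 0 and 0 across mutants. Its highest level was 2.85 BPM in mutant 3387, the library in which Vegfc was listed at 0. Pgf did not reach the level needed for testing, and no fold change is given for it. In the authors' deposited table the ratio of mutant to control means was 4.36 for Pgf with a p-value of 0.413, and that ratio rests on mutant 3387.

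Angpt1, the ligand that stabilises vessels through Tek, was at 20.3, 15.5, 31.5 and 21.0 BPM in the controls and at 19.7, 8.10, 15.8 and 19.5 BPM in the mutants. Mutant 3387 lay below all controls, and the other mutants lay within the control range. The change was -0.49 on the log2 scale (95% interval -1.33 to 0.35, SE 0.40, limma adjusted p = 0.864). Angpt1 was negative in all 19 alternatives, from -0.64 to -0.10. Relative to the median gene it was -0.26, and -0.25 with small RNA genes left out of the totals. In the authors' deposited table Angpt1 had the smallest p-value of the 7 ligands, 0.195, with a ratio of 0.715.

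Angpt2, the endothelial ligand that can loosen vessels, was at 8.78, 9.51, 22.0 and 10.7 BPM in the controls and at 14.0, 4.14, 4.84 and 14.0 BPM in the mutants. The mutants fell apart into a pair above 3 of the 4 controls (3382 and 3489) and a pair below all controls (3387 and 3487). The low pair are the libraries with small RNA shares of 48.4% and 53.2%, against 26.7% and 26.1% in the other mutants, and the part of that share in the split was not tested. The change was -0.51 on the log2 scale (95% interval -1.51 to 0.50, SE 0.48, limma adjusted p = 0.890). It was 0.22 without mutants 3387 and 3487 and 0.22 when the small RNA share was a covariate. With small RNA genes left out of the totals the low pair stayed lowest, at 8.02 and 10.3 per megabase against 12.5 to 26.2 in the controls.

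Angptl4, the inhibitor of lipoprotein lipase, was at 109, 45.4, 89.5 and 132 BPM in the controls and at 119, 119, 53.2 and 84.1 BPM in the mutants. In BPM the lowest library was control 3486 and the highest control 3587, so on this scale the mutants lay within the control range. The means were 94.1 ± 36.9 and 94.0 ± 31.9 BPM (SD, n = 4 each), and the change was 0.03 on the log2 scale (95% interval -0.75 to 0.81, SE 0.37, limma adjusted p = 0.992). It moved from -0.28 without control 3486 to 0.28 without mutant 3487. Relative to the median tested gene the change was 0.25. With small RNA genes left out of the totals Angptl4 was at 127 ± 47.8 and 155 ± 55.7 per megabase. Its log2 fold change was then 0.31 (limma adjusted p = 0.935). On that scale mutant 3387, at 231, lay above the highest control, 3587, at 176. In mutant 3387, where Angpt1 and Angpt2 had their lowest values, Angptl4 had its second highest BPM of the 8 libraries.

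**Figure D2:**
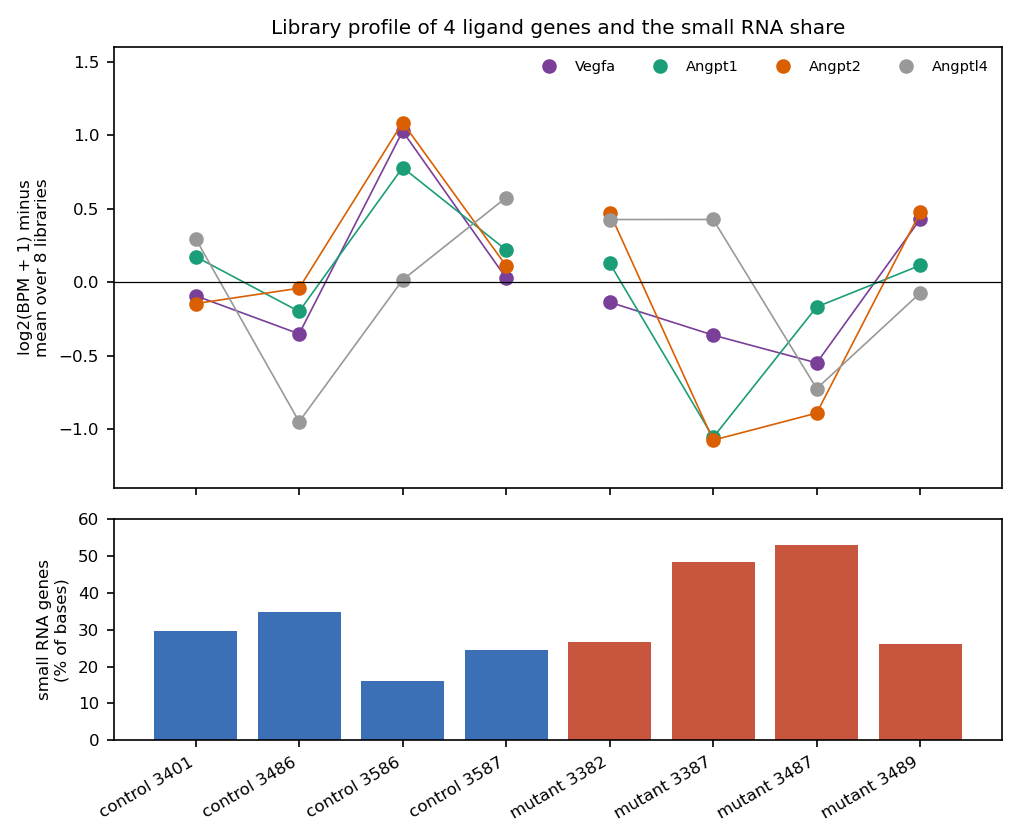
Upper plot, log2(BPM + 1) of Vegfa, Angpt1, Angpt2 and Angptl4 minus each gene's mean over the 8 libraries, and lower plot, the share of assigned bases in small RNA genes (bars from 0, controls blue, mutants red). Vegfa, Angpt1 and Angpt2 all peaked in control 3586, where the small RNA share was lowest at 16.0%, while Angptl4 was highest in control 3587.

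The library profiles of Vegfa, Angpt1 and Angpt2 differed less from each other than from those of Angptl4 and Vegfb. Likeness was measured as the root mean square difference of log2(BPM + 1) over the 8 libraries after each gene was centred on its own mean. It was 0.35 for Vegfa with Angpt1, 0.37 for Vegfa with Angpt2 and 0.35 for Angpt1 with Angpt2. Vegfc was nearly as close, at 0.38 with Angpt1 and 0.43 with Angpt2, and at 0.55 with Vegfa. The difference was 0.62 for Vegfa with Angptl4, 0.98 for Vegfa with Vegfb and 1.27 for Vegfb with Angptl4. The SD of the log2 values over the 8 libraries was 0.51 for Vegfa, 0.52 for Angpt1 and 0.72 for Angpt2. It was 0.56 for Angptl4 and 1.01 for Vegfb. A gene with no variation would differ from each of these by slightly less than that SD. The differences therefore also reflect how much each gene varied, most of all for Vegfb. The points share library, depth and small RNA share. The 3 nearest of all tested genes were closer to each ligand than the other ligands were. Those nearest to Vegfa were Tnfaip1, Plekhb2 and Zfp36l2, with differences of 0.11, 0.12 and 0.12. The nearest to Angpt1 were Desi1, Snap29 and Sco1 (0.080, 0.15 and 0.15), and to Angpt2 Med13l, Ocrl and Mll3 (0.12, 0.12 and 0.13). Angptl4 was closest to Plek2, Pus1 and Zfp511 (0.18, 0.19 and 0.21), Vegfc to Katna1, Alms1 and Tdp1 (0.17, 0.19 and 0.20), and Vegfb to Socs2, Apobec3 and Mzb1 (0.35, 0.36 and 0.40).

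The balance between ligands was compared within each library, which cancels the scaling to a common total apart from the pseudocount. Differences in the mean log2 ratio of (BPM + 1) were tested by exact 2-sided permutation of the group labels (70 arrangements), which allows a p no smaller than 0.0286, for 5 ratios. Angpt2 over Angpt1, often read as an index of vessel destabilisation, was -0.80 ± 0.28 among controls and -0.81 ± 0.51 among mutants (SD, n = 4 each; exact permutation p = 1.00, adjusted 1.00). The mutants lay on both sides of the controls, with -0.46 and -0.45 in 3382 and 3489 above them all, -1.53 in 3487 below them all and -0.82 in 3387 among them.

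Vegfa over Vegfb was the ratio with the largest difference. It was 5.19, 3.57, 5.65 and 5.22 across controls and 3.51, 5.43, 3.54 and 3.13 across mutants. On this scale mutants 3382, 3487 and 3489 lay below all controls, 3487 by a margin that rests on the pseudocount, and mutant 3387 lay between the control values. The plain ratio of BPM, with no pseudocount, was 73.0, 14.5, 73.3 and 70.7 across controls and 13.4, 151, 14.7 and 9.50 across mutants. There mutants 3382 and 3489 alone lay below all controls, 3487 was just above the lowest control and 3387 above them all. The difference was -1.01 on the log2 scale (exact permutation p = 0.229, adjusted 0.750), and it ranged from -1.51 to -0.75 when single libraries were left out. The ratios of Vegfa to Vegfc, Vegfa to Pgf and Angptl4 to Vegfa differed by -0.27, -0.67 and 0.34 (exact permutation p of 0.600, 0.343 and 0.486, each 0.750 after adjustment over the 5 ratios). The ratio to Pgf rests on the pseudocount in the 4 libraries where Pgf was listed at 0.

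**Figure D3:**
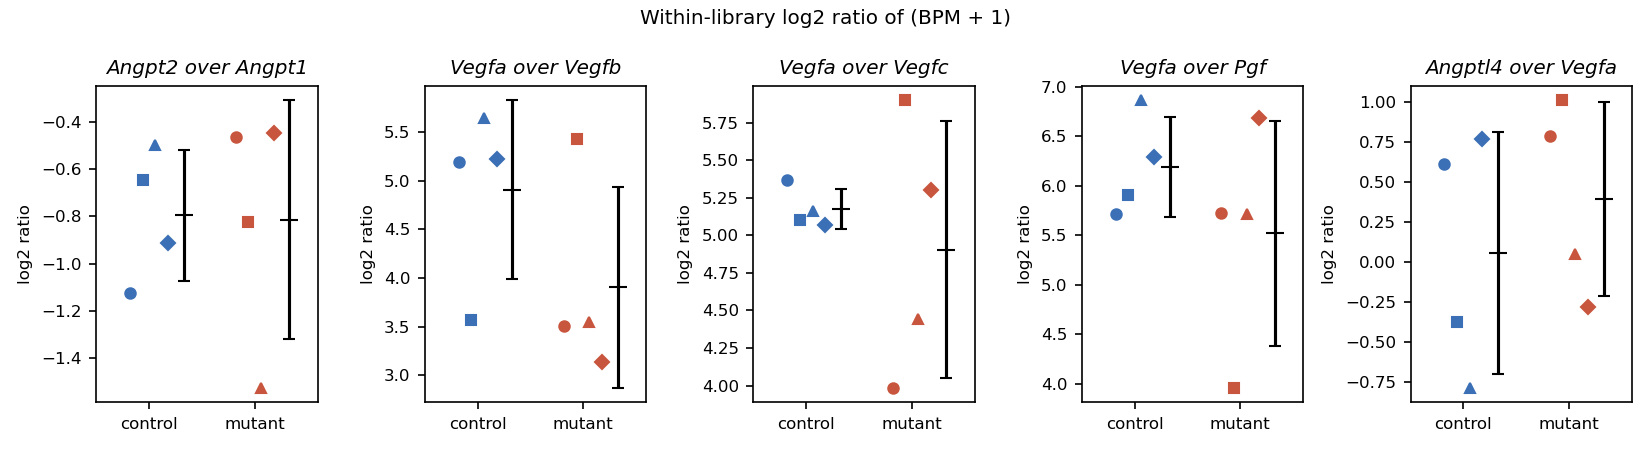
Log2 ratio of (BPM + 1) between ligands within each library, 1 point per library (controls blue, mutants red) with the mean and SD of each group of 4. For Vegfa over Vegfb 3 of 4 mutants lie below all controls on this scale and 2 of 4 in the plain ratio, and for Angpt2 over Angpt1 the mutants lie on both sides of the controls.

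No receptor gene passed the threshold of the same test. All 7 receptor genes were tested and all 7 had a negative log2 fold change, beside 71.5% of all tested genes. The receptor median was -0.58 against -0.23 over all genes. Under median scaling, quantile normalization and small RNA genes left out of the totals, 6 of 7 were negative, with Nrp1 positive, and the list median relative to the median gene was -0.35, -0.37 and -0.36. In the fit adjusted for small RNA share 4 of 7 were negative. Kdr, the main signalling receptor for VEGF-A, was at 70.1, 55.3, 105 and 108 BPM in the controls and at 62.9, 25.7, 26.5 and 51.6 BPM in the mutants. Mutants 3387, 3487 and 3489 lay below all controls, and mutant 3382 lay within their range. The change of Kdr was -1.06 on the log2 scale (95% interval -1.83 to -0.28, SE 0.37, limma adjusted p = 0.560). Kdr alone among the 7 receptors had an unadjusted limma p under 0.05, beside 6.33% of all tested genes. Kdr was negative in all 19 alternatives and passed in none, from -1.29 to -0.50. It was -0.50 in the covariate fit, and -0.51 without mutants 3387 and 3487 (95% interval -1.27 to 0.25). Relative to the median gene Kdr was -0.83, and from -0.91 to -0.72 across the alternatives.

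Flt1, the VEGF-A receptor that also acts as a decoy, had a log2 fold change of -0.63 and Flt4, the VEGF-C receptor, of -0.58 (limma adjusted p of 0.847 and 0.860). The co-receptors Nrp1 and Nrp2 were at -0.13 and -0.35 (0.958 and 0.900). Tek, the angiopoietin receptor, was at -0.50 and its partner Tie1 at -0.69 (limma adjusted p of 0.861 and 0.828). Of all tested genes 71.5% were negative, and the 10 endothelial markers, which include Tie1, were all negative. Their median was -0.55, and none passed. Eng and Ehd3 had the smallest p among them, with log2 fold changes of -0.94 and -0.82 (limma adjusted p of 0.598 and 0.715). The summed level of these markers was 375 to 682 BPM in the controls and 226 to 476 in the mutants. With small RNA genes left out of the totals 9 of 10 were negative, and 8 of 10 with the covariate. Their part in the values of Kdr and of the other receptors was not tested.

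**Figure D4:**
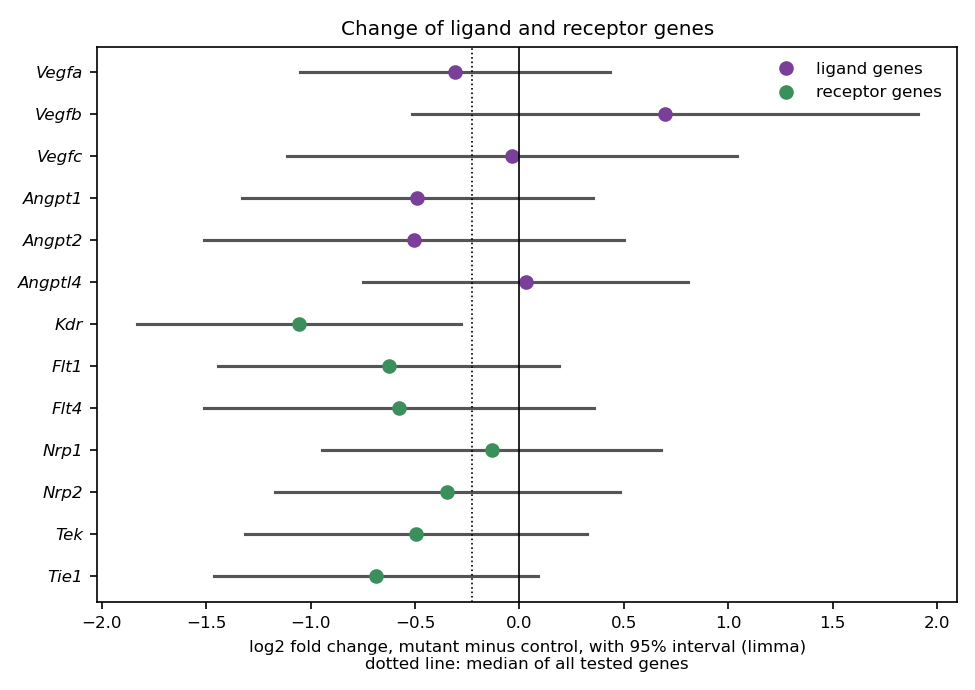
Log2 fold change (mutant minus control) with its 95% interval for the 6 tested ligand genes (purple) and the 7 receptor genes (green), from limma on 4 against 4 libraries. The interval of Kdr (-1.83 to -0.28) lies below 0 and those of the other genes include 0; the dotted line marks the median tested gene at -0.23.

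Ratios of ligand to receptor, chosen after the values were seen and therefore untested, put the ligand beside its target cell. Vegfa over Kdr, as a ratio of BPM, was 1.01, 1.07, 1.47 and 0.717 across controls and 1.09, 2.28, 1.94 and 1.98 across mutants. Mutants 3387, 3487 and 3489 lay above all controls, and mutant 3382 lay among them. Vegfa over Flt1, its other receptor, was 2.97, 2.90, 4.88 and 5.95 across controls and 6.21, 4.05, 4.09 and 6.40 across mutants. Here mutants 3382 and 3489 lay above all controls and 3387 and 3487 among them, so mutant 3489 alone lay above all controls in both ratios. Vegfa over the podocyte gene Podxl was 0.717 to 0.979 in the controls and 0.675 to 1.41 in the mutants. The same mutants 3387, 3487 and 3489 lay above all controls here too, at 1.31, 1.41 and 1.01. Mutant 3382 lay below all controls. Whole kidney does not show which cells gave the Vegfa coverage, so the ratio to Podxl is not a measure of podocyte output. Angpt2 over Tek was 0.253 to 0.308 in the controls and 0.175 to 0.333 in the mutants, and Angpt1 over Tek was 0.438 to 0.603 and 0.342 to 0.910 in the same order. The podocyte markers, a source of VEGF-A, had 7 of 8 tested members negative with a median of -0.25, close to the median gene, and none passed. With small RNA genes left out of the totals or median scaling 4 of 8 were negative, and with the covariate 1 of 8. Nphs1 and Podxl had the smallest p among them (log2 fold changes -0.86 and -0.66, limma adjusted p of 0.828 and 0.851). Exons of Nphs1 share 597 bases with the antisense gene Nphs1os and 183 with Rps12-ps4 on the opposite strand. The summed level of the podocyte markers was 124 to 374 BPM in the controls and 80.6 to 212 in the mutants.

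**Figure D5:**
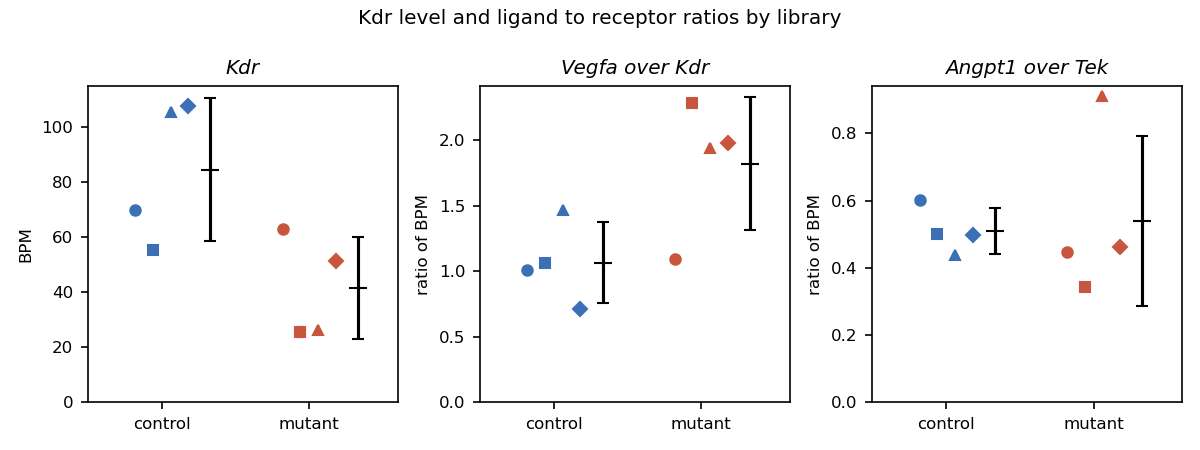
Level of Kdr in BPM and the ratios of Vegfa to Kdr and of Angpt1 to Tek in each library (axes from 0, controls blue, mutants red), with the mean and SD of each group of 4. Vegfa over Kdr was 1.94 to 2.28 in 3 mutants, above the control range of 0.717 to 1.47, and 1.09 in mutant 3382.

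Genes downstream of the receptors showed no call either. Of 10 tested genes 6 were negative, with a median of -0.55 and 0 past the threshold. With small RNA genes left out of the totals 6 were negative and the median was -0.32. In the covariate fit 4 were negative with a median of 0.08. Without mutants 3387 and 3487, 5 were negative with a median of 0.08. Ptprb, the endothelial phosphatase that restrains Tek, had a log2 fold change of -0.62 and Notch1, a receptor of tip and stalk cell choice, of -0.78 (limma adjusted p of 0.835 and 0.857). Exons of Notch1 overlap antisense transcripts. Among 19 other angiogenic ligands and relatives, 15 were tested, 7 positive and 8 negative, and none passed. Angptl6 was at 4.59, 2.18, 3.33 and 3.44 BPM across controls and at 0.615, 0.554, 1.14 and 2.04 BPM across mutants. It was the only tested gene of that list whose groups did not overlap, and among all tested genes the mutants lay wholly below the controls for 3.4% (log2 fold change -1.10, limma adjusted p = 0.692). Its exons share 265 bases with A230050P20Rik on the other strand. Angptl7, which lies inside Mtor on the opposite strand, had means of 666 ± 344 BPM in controls and 384 ± 149 in mutants (SD, n = 4 each, limma adjusted p = 0.815).

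The oxygen-sensing pathway, which induces Vegfa and Angptl4 when oxygen falls, had 19 of 20 genes tested and none past the threshold. Of these 17 were negative with a median of -0.36, beside 71.5% negative among all tested genes. Of the 19, 12 were negative with small RNA genes left out of the totals and 7 with the covariate. The transcription factors Hif1a and Epas1 had log2 fold changes of -0.22 and -0.48 and the targets Slc2a1 and Adm of -0.28 and -0.74, with limma adjusted p from 0.857 to 0.934. By the smallest p the list was led by Egln3, an oxygen sensor, and P4ha1, a collagen prolyl hydroxylase, at -0.74 and -0.52 (limma adjusted p of 0.854 and 0.857).

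The PPAR pathway and the lipoprotein lipase genes, which surround Angptl4, had 17 of 18 genes tested, 8 positive and 9 negative, with none past the threshold. Lpl, the enzyme that Angptl4 inhibits, was at 536 ± 159 and 442 ± 104 BPM, and Gpihbp1, its capillary anchor, at 46.8 ± 12.4 and 34.6 ± 6.65 (SD, n = 4 each; limma adjusted p of 0.906 and 0.870). Cyp4a14, a fatty acid hydroxylase and PPAR target, was at 2.91, 1.36, 7.42 and 8.09 BPM across controls and at 27.5, 21.1, 3.67 and 41.6 BPM across mutants. Mutant 3487 lay within the control range and the other mutants above it (log2 fold change 1.87, SE 0.61, limma adjusted p = 0.478). Cyp4a14 passed in 3 of 19 alternatives. These were the fit without mutant 3487 (log2 fold change 2.54, limma adjusted p = 0.0334), without mutants 3387 and 3487 (2.76, limma adjusted p = 0.0299) and the covariate fit (2.92, limma adjusted p = 0.00163). With the covariate 2 of the 17 genes passed, beside 482 of all 13054 tested genes. Cyp4a14 has close paralogs, so its coverage is uncertain. Acadm, an enzyme of fatty acid oxidation, had a log2 fold change of -0.62 (limma adjusted p = 0.799). Fat around the kidney could carry Angptl4, and of 6 adipocyte markers 3 were tested. The summed adipocyte level was 43.5 to 63.0 BPM in the controls and 37.1 to 58.6 in the mutants. Fabp4, which endothelium also expresses, made up 71.9% to 100% of it in the controls and 62.8% to 94.8% in the mutants. Adipoq and Cidec were at 11.4 and 5.75 BPM in mutant 3487 and at 4.72 and 5.64 BPM in control 3586.

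Pericytes make angiopoietin 1 and macrophages can make VEGF ligands, so their markers are set beside the ligands. Pericyte and smooth muscle markers had 5 of 8 members positive and a median of 0.63, with Rgs5 and Tagln at log2 fold changes of 0.67 and 0.74 (limma adjusted p of 0.817 each). None passed, and in the covariate fit 2 of 8 did, beside 482 of all 13054 tested genes. Exons of Tagln share 1241 bases with the antisense gene Gm48529 and 108 with Pcsk7 on the opposite strand. Macrophage markers had all 7 tested members positive with a median of 1.09, 0 past the threshold and 3 with all mutants above all controls, against 0.889% of all tested genes. Lyz2, the lysozyme of myeloid cells, was at 43.3, 83.5, 65.6 and 92.0 BPM across controls and at 1057, 165, 110 and 529 BPM across mutants (log2 fold change 2.20, SE 0.52, limma adjusted p = 0.116). Cd14, a receptor for bacterial lipopolysaccharide, had a log2 fold change of 1.34 (SE 0.43, limma adjusted p = 0.448), and both had all mutants above all controls. Lyz2 passed in 8 and Cd14 in 5 of the 19 alternatives, both of them with small RNA genes left out of the totals (limma adjusted p of 0.0133 and 0.0335). In the covariate fit all 7 markers passed, beside 2 of the 8 tubule markers and 482 of all 13054 tested genes. Lyz2 has a close paralog in Lyz1, so its coverage is uncertain. The summed level of the list was 106 to 203 BPM in the controls and 194 to 1473 in the mutants, with the highest values in mutants 3382 and 3489. Without Lyz2 the sum was 63.0 to 111 BPM in the controls and 84.5 to 416 in the mutants. The groups overlapped both with Lyz2 in the sum and without it. Mutants 3382 and 3489 also had the higher mutant values of Angpt2 and Vegfb. The part of macrophage RNA in these values was not tested.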

How the data were processed

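RNA of 8 kidneys was sequenced after ribosomal RNA depletion with Ion Total RNA-seq libraries, per the labels' protocols. The authors deposited a table of 23219 genes with a coverage signal for each library, a ratio of group means and an unadjusted p-value, with no unit in the header. Per the submitters' processing notes, bedtools and mm10 were used, and no aligner, annotation, filter or strand setting is given in the sources used here. Within a tolerance of 1e-06, every value is a whole multiple of the lowest value of its library, and each library has nearly the same total. Values were read as assigned bases plus 1, scaled. That base was subtracted here and levels were expressed per megabase (BPM). Because the unit is not a read count, a log2 scale was used, and 8 housekeeping genes had 0 values at 0.

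Genes at 1 BPM or above in 4 or more libraries were fitted as log2(BPM + 1) with limma 3.58.1 in R 4.3.3, using a trended variance prior. Tests were 2-sided with a Benjamini-Hochberg threshold of 0.05, and the code was run on simulated data first. Fold changes on this scale understate changes of low genes. Single ratios were tested by exact permutation in scipy 1.17.1. Exon lengths and coordinates come from GENCODE vM21, with older symbols (Figf for Vegfd, Gm6484 for Angptl8, Emr1 for Adgre1) matched through RefSeq. The GC box search was added after the promoters were seen. Named genes were all 7 ligands and all receptors, and in each other list the genes past the threshold or else the 2 of smallest p, with other genes named for their role after their values were seen. Nearest profiles are the 3 closest tested genes with a mean log2 value of at least 1. The members and lists were chosen with earlier results of these data known. Alternatives covered filters, pseudocounts, weights, scalings, a covariate and left-out libraries.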

Additional observations from a re-analysis of the deposited data

Results flagged for a closer look

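Among 78 groups of 4 values examined, 3 held a library far from the other 3, with a gap over range above Dixon's critical value of 0.829, and chance flags about 1 in 20 groups. Pgf was at 2.85 BPM in mutant 3387, from 673 assigned bases, with the other mutants at 0 to 0.316. Angpt2 was at 22.0 BPM in control 3586, with the other controls at 8.78 to 10.7, and that library had the lowest small RNA share. Egln3 was at 16.0 BPM in control 3486, with the other controls at 8.89 to 9.99.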

How the results depend on the processing

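No ligand passed the threshold in any of the 19 alternatives. Of 112 ligand estimates under them, 97 kept their sign and 15 reversed, and 3, all of Vegfb, had an unadjusted limma p under 0.05. Reversed values with small RNA share as covariate were 0.14 (Vegfa), 0.56 (Vegfc), 0.22 (Angpt2), 0.57 (Nrp1), 0.29 (Nrp2), 0.10 (Tek), 0.097 (Notch1), 0.096 (Podxl) and 0.11 (Slc34a1). Without mutants 3387 and 3487 they were 0.53 (Vegfc), 0.22 (Angpt2), 0.56 (Nrp1), 0.33 (Nrp2), 0.029 (Tek), 0.20 (Notch1) and 0.024 (Fabp4). Vegfc and Nrp1 reversed to 0.056 and 0.079 with array weights, 0.062 and 0.15 without small RNA genes in the totals, 0.068 and 0.12 under median scaling and 0.014 and 0.026 without the 20 most abundant genes. Nrp1 was 0.18 under quantile normalization. Fabp4 was 0.030 without small RNA genes, 0.0022 under median scaling and 0.024 under quantile normalization, and Angptl4 was -0.092 with array weights. Vegfa over Vegfc was 0.18 with a pseudocount of 0.1. The fit of array weights stopped before full convergence. Kdr, Cyp4a14, Lyz2 and Cd14 kept their sign in all 19, between -1.29 and -0.50, 1.48 and 2.92, 1.62 and 3.43, and 1.07 and 2.05. Kdr passed in none, and Cyp4a14, Lyz2 and Cd14 in 3, 8 and 5. The causes were not tested.

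Leaving out single libraries gave -0.50 to -0.02 for Vegfa, 0.25 to 1.27 for Vegfb, -0.35 to 0.36 for Vegfc, -0.64 to -0.22 for Angpt1, -0.75 to -0.23 for Angpt2, -0.28 to 0.28 for Angptl4 and -0.40 to 0.18 for Nrp1. For the ratios it gave -0.14 to 0.22 for Angpt2 over Angpt1 and -0.60 to 0.038 for Vegfa over Vegfc. The count of 14 genes past the threshold was 4 with no filter, 9 with a filter of 5 BPM, 9 with a pseudocount of 0.1, 73 with array weights, 59 without small RNA genes in the totals, 60 under median scaling and 68 under quantile normalization. It was 45 without the 20 most abundant genes, 482 with the covariate, 7 on the deposited scale and 51 without mutants 3387 and 3487. It ranged from 5 (without mutant 3387 or 3489) to 40 (without mutant 3487), with 8 without control 3401 or 3587 and 37 without control 3486. The median tested gene moved from -0.23 to 0.03 without small RNA genes in the totals and to 0.25 with the covariate. Vegfb and Vegfc were not tested under the filter of 5 BPM. No paired analysis was made, since the labels give no pairing of controls with mutants.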
